A study of Mus musculus with 24 samples.

Results

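Glutathione transferases of mouse liver were followed at 10 genes: Gsta1, Gsta2 and Gsta4 of the alpha class, Gstm1, Gstm2, Gstm3 and Gstm4 of the mu class, Gstp1 and Gstp2 of the pi class, and Gstt1 of the theta class. The genes were chosen with earlier results of these data known, and their probes were found by symbol: 15 of the 25697 probes on the array carry one of these symbols, on an array with 17893 named genes. Gstm1 has 2 probes, Gstm2 and Gstp1 have 3 each and every other gene has 1. All 15 probes passed the filter on dim probes, which asks for a value above background on at least 4 arrays, but Gstm3 did so on 8 arrays only, all of them from knockouts at weeks 4 and 8. The series holds 24 Illumina expression arrays of total liver RNA, 4 for each genotype at each week: DNMT1 knockout livers at weeks 4, 8 and 20, and control livers at the same weeks. The sources used here name no allele, promoter or Cre driver for the knockout and no strain or sex. Nothing in the labels tells separate animals from repeat arrays of 1 animal. The p-values therefore cover the spread among arrays within groups, estimated over all 24 arrays together, and no more. That spread may be technical.

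Glutathione transferases join the tripeptide glutathione to electrophilic compounds, among them oxidised lipids, drugs and carcinogens, and so prepare them for export from the cell. The enzymes work as dimers, and the classes differ in sequence and in preferred substrates. In rodent liver several of the genes are known to respond to electrophiles through the transcription factor NRF2 and to drugs through nuclear receptors. DNMT1 is the maintenance methyltransferase that copies CpG methylation to newly made DNA.

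Values are the deposited normalized intensity, in arbitrary units. A difference is the knockout mean minus the control mean of log2(intensity + 16), ± SE, over 4 arrays per group. That scale understates the change of dim genes. All adjusted p-values come from limma with Benjamini-Hochberg adjustment over the 10733 genes tested, with a threshold of 0.05. Levels of different probes are not compared as results. The precision is limited by the number of arrays.

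The Dnmt1 probe was lower in the knockouts by amounts that did not pass the test, with differences of -0.25 ± 0.19, -0.30 ± 0.19 and -0.58 ± 0.19 at weeks 4, 8 and 20 (adjusted p = 0.36, 0.20 and 0.074). The position of that probe relative to the deletion is not known here, so it does not check the labels. Control week 20 replicates 3 and 4 stood apart: the acute phase gene Saa1, picked after its values were seen, was at 12.62 and 12.52 on the log2 scale there, against 5.86 and 5.92 in replicates 1 and 2. Knockout week 8 replicate 4 differed from its group in sex chromosome transcripts, with Ddx3y at 7.41 against 10.71 to 11.26 in the other knockout arrays of that week. Of 8 hepatocyte markers 7 were tested; 0 were higher and 2 lower at week 4, and 0 were higher and 3 lower at week 8, namely Alb (-2.94), Tat (-1.52) and Serpina1a (-0.88). Their summed intensity, to which the brightest genes add most, overlapped at week 8, at 110339 to 118933 in knockouts and 113021 to 124244 in controls. All 8 macrophage markers tested of 9 were higher in the knockouts at weeks 4 and 8, and 1 was at week 20. Their summed intensity at week 8 was 12951 to 20648 in knockouts and 3509 to 4800 in controls. Of 8 biliary markers 4 were tested and 3 of them were higher at week 8, with sums of 2001 to 3454 in knockouts and 344 to 554 in controls; Krt19 and Epcam were not among the genes tested. Of 7 stellate cell markers 6 were higher at week 8, with sums of 15495 to 18604 in knockouts and 5456 to 6059 in controls. All 3 neutrophil markers tested of 4 were higher at week 8, with sums of 779 to 1768 in knockouts and 13.2 to 67.1 in controls, and so were 2 of 3 T and NK cell markers. Of 5 endothelial markers 1 was higher and 2 were lower at week 8, with sums of 3320 to 5367 in knockouts and 5659 to 6511 in controls. Of all genes tested, 14.8% were higher and 12.4% lower at week 4, 24.9% and 24% at week 8, and 3.44% and 2.23% at week 20. The part of these cell types in the results below was not tested, and in whole liver RNA fewer cells of a type and less RNA per cell cannot be told apart.

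At week 4, 7 of the 10 transferase genes were higher in DNMT1 knockout liver by limma and 0 were lower, also 0 at an unadjusted p under 0.05, where 14.8% of all genes tested were higher and 12.4% were lower. At week 8, 8 were higher and 2 were lower, against 24.9% and 24% of all genes. At week 20, 2 were higher and 1 was lower, against 3.44% and 2.23% of all genes. Gstm3 passed the filter through knockout arrays alone, and among the other 9 genes 6 were higher at week 4 and 7 at week 8. Because of how the genes were chosen, these counts and the medians below describe them and are no test of the family. Of 13 other transferases tested, 1 was higher and 2 were lower at week 4 (7.69% and 15.4%). The same 7 genes were higher at weeks 4 and 8: Gsta1, Gsta2, Gsta4, Gstm1, Gstm2, Gstm3 and Gstp2. The median difference of the 10 genes was 1.05 at week 4, 1.41 at week 8 and 0.17 at week 20, while the median over all genes was -0.01, -0.07 and 0.00. These medians and the counts of overlap that follow include Gstm3, whose controls were all at background. At week 4 the arrays of the genotypes did not overlap for 6 genes with the knockouts above and for Gstt1 with them below, where 15.8% and 14.1% of all genes did so. At week 8 they overlapped for none of the 10 genes, 8 with the knockouts above and 2 below, against 22.5% and 21.4% of all genes. At week 20 they overlapped for all 10, where 5.6% of all genes lay apart above and 4.48% below.

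**Figure D1:**
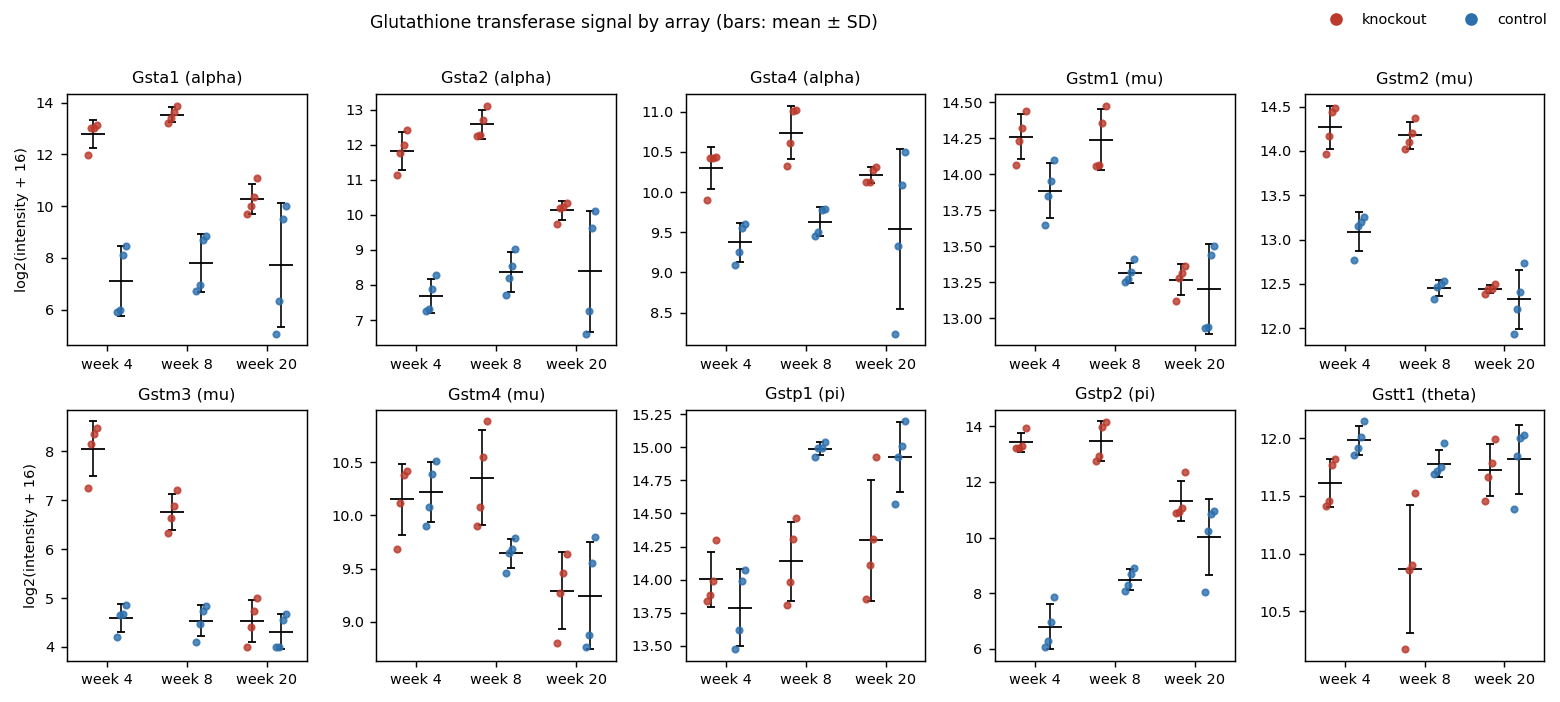
Signal of each transferase gene, in log2(intensity + 16), for knockouts and controls at weeks 4, 8 and 20, with 1 point per array and black bars for the group mean ± SD. At week 8 the knockout and control arrays of all 10 genes are apart, and at week 20 they overlap for all 10.

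**Figure D2:**
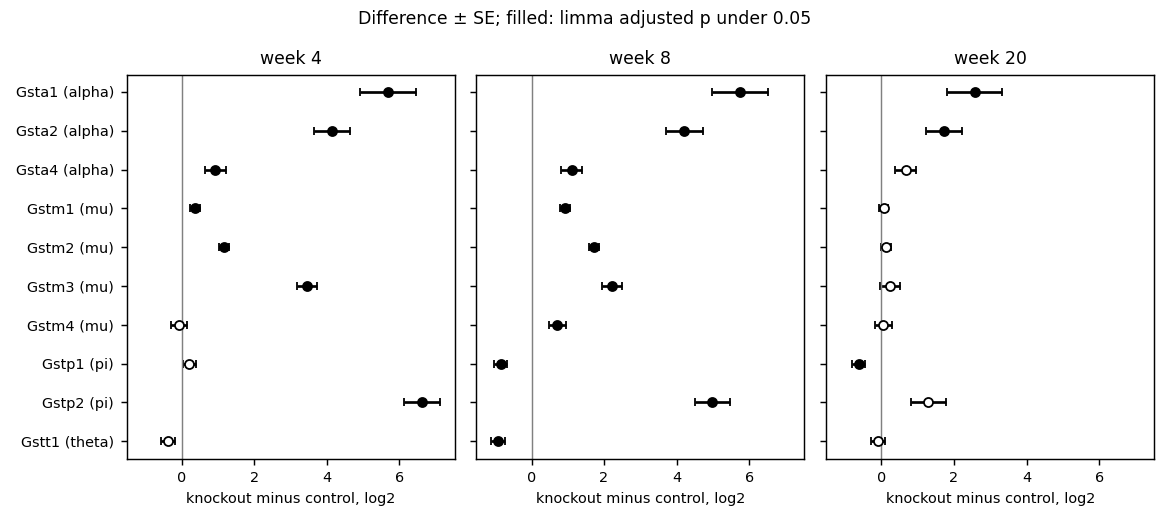
Difference of each gene between knockouts and controls, in log2(intensity + 16), at weeks 4, 8 and 20, with bars for the SE and filled points for an adjusted p under 0.05. Gstp2 has the highest value at week 4 (6.62) and Gsta1 the highest at week 8 (5.74), and no difference exceeds 2.56 at week 20.

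The alpha class genes Gsta1 and Gsta2 encode closely related hepatic enzymes with glutathione peroxidase activity toward lipid hydroperoxides. Both were far higher in knockout liver at weeks 4 and 8. Their RefSeq promoter windows (assembly GRCm38.p6, 250 bases before to 50 after the gene's start) are shown because the pair moved together in these data. Capitals mark CG dinucleotides, of which each window has 2; aligned globally, 232 of 311 columns were identical (74.6%). Gsta1 lies on the plus strand at chr9:78230419-78230718 and Gsta2 on the minus strand at chr9:78347096-78347395.
Gsta1: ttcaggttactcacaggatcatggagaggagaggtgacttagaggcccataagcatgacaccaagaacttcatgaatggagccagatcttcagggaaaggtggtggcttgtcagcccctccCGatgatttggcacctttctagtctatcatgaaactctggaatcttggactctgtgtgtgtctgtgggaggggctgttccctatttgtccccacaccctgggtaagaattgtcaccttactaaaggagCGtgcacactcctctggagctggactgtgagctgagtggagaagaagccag
Gsta2: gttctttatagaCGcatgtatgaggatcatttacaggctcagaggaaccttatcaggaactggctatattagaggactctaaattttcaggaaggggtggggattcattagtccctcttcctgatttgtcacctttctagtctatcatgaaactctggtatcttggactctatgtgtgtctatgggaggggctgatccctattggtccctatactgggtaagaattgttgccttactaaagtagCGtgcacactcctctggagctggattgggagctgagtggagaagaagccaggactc

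At week 4 Gsta1 read 9065, 8361, 4060 and 8278 in knockouts, against 337, 259, 43.9 and 47.9 in controls. At week 8 it read 15061, 10852, 12656 and 9484 in knockouts, against 107, 88.4, 392 and 440 in controls. Every knockout array lay above every control array at both weeks, and the controls themselves fell into a higher and a lower pair each time. The differences were 5.68 ± 0.76 (adjusted p = 4.3e-06) at week 4 and 5.74 ± 0.76 (adjusted p = 9.7e-07) at week 8. The ratios of mean intensity, a separate measure on the linear scale, were 43.2 and 46.7. At week 20 it read 2133, 819, 1295 and 1020 in knockouts, against 1000, 704, 64.7 and 17.7 in controls. Here the groups overlapped, and the 2 low control arrays were replicates 3 and 4, which carry the high Saa1. The week 20 difference was 2.56 ± 0.76 (adjusted p = 0.048). Without those 2 arrays it was 0.55 (adjusted p = 0.704). Leaving out 1 array at a time gave 1.68 to 3.32, and the call ended in 6 of the 8 cases.

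Gsta2 followed the same order. It read 5519, 3491, 2222 and 4040 in knockouts at week 4, against 294, 218, 137 and 144 in controls. The week 8 values were 6698, 4917, 8861 and 4817 in knockouts, against 276, 194, 360 and 507 in controls. No array overlapped at either week. The differences were 4.15 ± 0.50 (adjusted p = 9.1e-07) and 4.21 ± 0.50 (adjusted p = 1.8e-07). At week 20 it read 1273, 839, 1187 and 1162 in knockouts, against 1084, 770, 136 and 81.9 in controls. The 4 knockout arrays were close together and the controls were spread over a wide range with the same 2 arrays lowest. The difference of 1.73 ± 0.50 (adjusted p = 0.042) became 0.27 (adjusted p = 0.746) without them. Leaving out 1 array at a time gave 1.14 to 2.30, and the call ended in 6 of the 8 cases.

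Gsta4 encodes the alpha enzyme that prefers the lipid peroxidation product 4-hydroxynonenal. It was also higher at both early weeks, by much smaller amounts. Its knockout arrays read 1362, 1369, 943 and 1353 at week 4, against 735, 759, 593 and 529 in controls, a difference of 0.92 ± 0.29 (adjusted p = 0.018). At week 8 they read 1266, 1551, 2059 and 2038, against 686, 711, 869 and 862 in controls, a difference of 1.11 ± 0.29 (adjusted p = 0.0025). The groups did not overlap at either week, although the week 4 call ended without control replicate 5 (adjusted p = 0.055). At week 20 it averaged 1170 ± 79.8 in knockouts and 855 ± 504 in controls (SD, n = 4 each), a difference of 0.67 ± 0.29 that missed the threshold (adjusted p = 0.173). Without control replicate 1 it passed at 0.99 (adjusted p = 0.0237), and without control replicates 3 and 4 together it was -0.09 (adjusted p = 0.871).

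Across the 24 arrays Gsta1 and Gsta2 had a Pearson correlation of 0.99, and the deviations from their group means one of 0.93. Gsta1 and Gsta4 had 0.89 and 0.82. Control week 20, which holds the arrays with high Saa1, had the widest spread for each of these genes. Its log2 SD was 2.39 for Gsta1, 1.72 for Gsta2 and 0.995 for Gsta4. The next widest were 1.36 (control week 4), 0.56 (control week 8) and 0.33 (knockout week 8). The correlations of deviations therefore weigh that control week 20 group most, and whether they hold without it was not tested. All these correlations are descriptions of the same 24 arrays. Probe sequences were not used here, so binding of one gene's transcript to the other's probe was not tested.

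**Figure D3:**
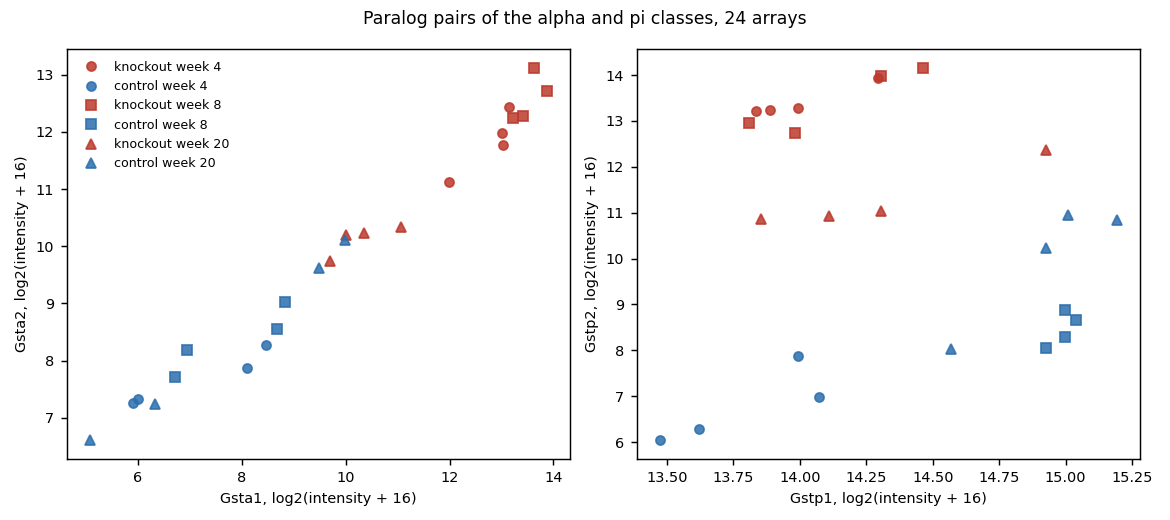
Gsta1 against Gsta2 and Gstp1 against Gstp2 on the log2(intensity + 16) scale, 1 point per array, coloured by genotype with a marker for each week. The alpha pair runs along 1 line (correlation 0.99), whereas the pi pair does not over all 24 arrays (correlation -0.04).

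The mu class genes lie in a row on chromosome 3 in the RefSeq order, with predicted genes between some of them, and all 4 were higher in knockout liver at week 8. Gstm3 is shown with its promoter window because it read at background in every control array; the window lies on the minus strand at chr3:107969125-107969424, and capitals mark its 5 CG dinucleotides.
Gstm3: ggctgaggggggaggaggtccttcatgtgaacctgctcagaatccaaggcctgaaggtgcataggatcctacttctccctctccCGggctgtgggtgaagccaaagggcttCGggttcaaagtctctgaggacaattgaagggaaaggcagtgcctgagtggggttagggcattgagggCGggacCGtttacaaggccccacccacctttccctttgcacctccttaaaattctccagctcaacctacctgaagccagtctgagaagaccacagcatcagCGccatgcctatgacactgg

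Gstm3 read 268, 310, 136 and 342 in knockouts at week 4, against 9.54, 12.9, 9.29 and 2.31 in controls, none of which was above the background threshold of 16.3. At week 8 it read 131, 83.1, 102 and 64.2 in knockouts, against 1.26, 6.28, 10.5 and 12.5 in controls. Its level was therefore at least 15.2-fold higher at week 4 and at least 5.62-fold higher at week 8, against the lowest signal above background on each control array. At week 20 no array of either genotype was above background, with 5.32, 15.9, -1.66 and 10.7 in knockouts and 9.58, -3.02, -10.8 and 7.38 in controls, and no fold is given.

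Gstm2 was higher in the knockouts than in controls at weeks 4 and 8. It read 18473, 22278, 15971 and 22900 in knockouts at week 4, against 9733, 9360, 9065 and 6973 in controls. The week 8 values were 18908, 17492, 21154 and 16678 in knockouts, against 5135, 5661, 5758 and 5905 in controls. The groups were apart at both weeks, with differences of 1.18 ± 0.14 (adjusted p = 6.5e-07) and 1.72 ± 0.14 (adjusted p = 2.9e-10). Its other probes gave 1.12 and 1.07 at week 4 and 1.77 and 1.74 at week 8. At week 20 it averaged 5556 ± 169 in knockouts and 5225 ± 1219 in controls (SD, n = 4 each), a difference of 0.12 ± 0.14 (adjusted p = 0.673).

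Gstm1, the abundant hepatic mu enzyme, differed less. It read 20414, 19172, 17097 and 22148 in knockouts at week 4, against 17492, 14713, 12816 and 15845 in controls. The highest control array exceeded the lowest knockout array, and the difference was 0.38 ± 0.13 (adjusted p = 0.034). That call ended when any one of 5 of the 8 arrays was left out, at adjusted p-values up to 0.124. At week 8 it read 22761, 17029, 20989 and 17097 in knockouts, against 9896, 10211, 9733 and 10882 in controls, with no overlap and a difference of 0.92 ± 0.13 (adjusted p = 2.4e-06). A second, dim Gstm1 probe read 7.57 to 46.9 over all arrays and passed the test at no week, with differences of 0.42, -0.35 and -0.54 at weeks 4, 8 and 20. At week 20 the first probe differed by 0.06 ± 0.13 (adjusted p = 0.826).

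Gstm4 passed the test at week 8 alone. There it read 1487, 1067, 1872 and 940 in knockouts, against 688, 783, 869 and 808 in controls, a difference of 0.71 ± 0.23 (adjusted p = 0.014). All 4 knockout arrays lay above the controls, but without knockout replicate 3 the difference was 0.53 (adjusted p = 0.0704). At weeks 4 and 20 its differences were -0.07 ± 0.23 and 0.05 ± 0.23 (adjusted p = 0.854 and 0.936).

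The pi class genes Gstp1 and Gstp2 are neighbours on chromosome 19 and encode very similar proteins; Gstp1 is the main pi enzyme of mouse liver and is known to be more abundant in adult males. Their differences between genotypes had opposite signs at week 8: Gstp2 was higher in the knockouts and Gstp1 lower. From week 4 to week 8 Gstp1 rose by 1.20 in controls (limma adjusted p = 8.6e-05). In knockouts it changed by 0.14 (adjusted p = 0.738). The promoter windows of both genes are printed because their differences parted in these data. Both lie on the minus strand, Gstp1 at chr19:4037863-4038162 and Gstp2 at chr19:4042172-4042471. Capitals mark CG dinucleotides and, as a run of 7 letters, the AP-1 type motif TGANTCA.
Gstp1: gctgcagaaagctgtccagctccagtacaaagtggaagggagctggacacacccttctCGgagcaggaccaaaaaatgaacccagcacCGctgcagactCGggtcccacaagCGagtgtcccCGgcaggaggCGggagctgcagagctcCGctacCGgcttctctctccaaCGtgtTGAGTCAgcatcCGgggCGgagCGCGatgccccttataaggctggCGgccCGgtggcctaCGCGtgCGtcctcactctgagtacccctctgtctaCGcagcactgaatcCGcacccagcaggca
Gstp2: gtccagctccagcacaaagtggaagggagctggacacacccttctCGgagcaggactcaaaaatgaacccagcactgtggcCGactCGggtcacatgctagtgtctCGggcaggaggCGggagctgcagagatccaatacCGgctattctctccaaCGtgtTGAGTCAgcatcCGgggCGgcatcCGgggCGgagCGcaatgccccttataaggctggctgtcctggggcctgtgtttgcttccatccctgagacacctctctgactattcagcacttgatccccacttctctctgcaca
On alignment 242 of 316 columns were identical (76.6%). Gstp1 has 20 CG dinucleotides and Gstp2 has 12, where the median over 32851 mouse windows is 7 and the quartiles are 3 and 20. TGANTCA, searched on both strands and reading the same on each, starts 74 bases before the start of Gstp1 and 89 bases before that of Gstp2, and 7.81% of all windows hold it. The antioxidant response element core TGACNNNGC, also searched on both strands, stands in 12.4% of all windows and in none of those of the 9 of 10 genes that have a window in the table. Gsta4 has no entry there. A match is a string of letters, not a site in use. Bases outside the windows and variants of the TGACNNNGC core were not searched. A missing match therefore does not show that a gene lacks such an element.

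Gstp2 read 9896, 9626, 9569 and 15676 in knockouts at week 4, against 218, 110, 50.1 and 62.0 in controls. At week 8 it read 18231, 7887, 16226 and 6854 in knockouts, against 251, 458, 391 and 295 in controls. Every knockout array was far above every control array. The differences were 6.62 ± 0.48 (adjusted p = 1.6e-10) and 4.98 ± 0.48 (adjusted p = 7.0e-09), and the ratios of mean intensity were 102 and 35.2. At week 20 it read 2096, 1940, 1859 and 5275 in knockouts, against 246, 1190, 1967 and 1812 in controls. The groups overlapped, with knockout replicate 4 high and control replicate 1 low, and the difference of 1.29 ± 0.48 missed the threshold (adjusted p = 0.117). Without control replicate 1 it was 0.63 (adjusted p = 0.351), and without control replicates 3 and 4 together it was 2.17 and passed (adjusted p = 0.0225).

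Gstp1 read 16284, 15134, 14608 and 20095 in knockouts at week 4, against 16284, 17200, 11362 and 12579 in controls, with overlapping groups and a difference of 0.21 ± 0.18 (adjusted p = 0.421). At week 8 it read 22570, 14342, 20233 and 16148 in knockouts, against 31085, 32672, 33658 and 32672 in controls. All 4 control arrays lay above the knockouts, and the difference was -0.85 ± 0.18 (adjusted p = 0.00045). At week 20 it read 20233, 17682, 14774 and 31085 in knockouts, against 24294, 31085, 32969 and 37471 in controls, with replicate 4 of the knockouts inside the control range. That difference, -0.63 ± 0.18 (adjusted p = 0.045), missed the threshold when any one of 6 of the 8 arrays was left out, and without control replicates 3 and 4 it was -0.45 (adjusted p = 0.307). This probe ranked between 2 and 195 among the 25697 probes on an array and read up to 37471, where the highest value of the series is 38683. The sorted values of the arrays correlated at 0.9999999988 or more with those of the first array, so the arrays share nearly the same distribution. The value of a probe therefore follows its rank within the array, and the top of the scale is nearly fixed. Whether the top of the scale limits the differences of this probe was not tested. Without knockout week 8 replicate 4, the array that differed in sex chromosome transcripts, the week 8 differences were -0.80 for Gstp1 and 5.22 for Gstp2, both still past the threshold.

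The other Gstp1 probes were also lower at week 8, with differences of -0.89 (adjusted p = 0.00091) and -2.22 (adjusted p = 4.8e-07), both adjusted over 14536 probes. The dimmest of the 3 read 104, 66.9, 64.1 and 56.3 in knockouts at week 8, against 402, 370, 522 and 300 in controls. Its difference changed by 1.75 between weeks 8 and 20 (adjusted p = 0.0018), a change that the brightest probe did not pass (0.22, adjusted p = 0.557 over genes). At week 20 neither of the other probes passed, at -0.40 (adjusted p = 0.263) and -0.47 (adjusted p = 0.348). Gstp1 and Gstp2 had a correlation of -0.04 over the 24 arrays and of 0.82 between deviations from their group means. Whether probes of one gene bind transcripts of the other was not tested.

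**Figure D4:**
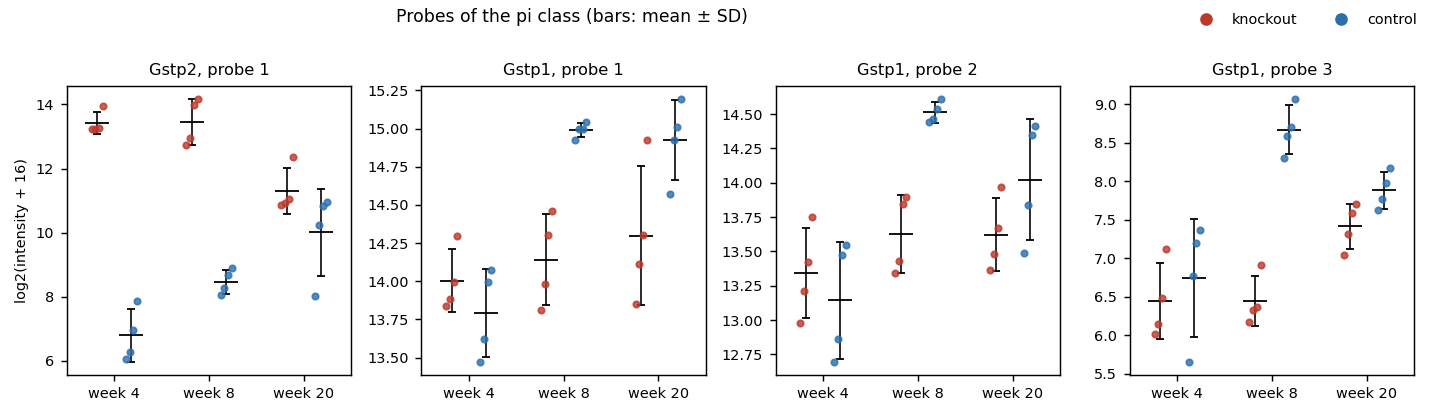
Signal of the Gstp2 probe and the 3 Gstp1 probes, in log2(intensity + 16), for knockouts and controls at weeks 4, 8 and 20, with 1 point per array and black bars for the group mean ± SD. All 3 Gstp1 probes are lower in the knockouts at week 8, while Gstp2 is higher at weeks 4 and 8.

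Gstt1, a theta enzyme that acts on small halogenated compounds, was lower in the knockouts at week 8. It read 1136, 1898, 1842 and 2938 there, against 3350, 3436, 3295 and 3960 in controls, with no overlap and a difference of -0.92 ± 0.19 (adjusted p = 0.00029). At week 4 it read 2707, 3470, 3591 and 2799 in knockouts, against 4112, 3851, 4512 and 3678 in controls. The arrays did not overlap then either, but the difference of -0.37 ± 0.19 missed the threshold (adjusted p = 0.157), and passed it with the spread of those 8 arrays alone (adjusted p = 0.0254). At week 20 the difference was -0.09 ± 0.19 (adjusted p = 0.829).

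The change of the knockout-control difference between weeks was tested directly. Between weeks 4 and 8 it passed for 2 of the 10 genes, both downward, where 5.57% of all genes moved upward and 3.36% downward: Gstp1 by -1.06 (adjusted p = 0.010), and Gstm3 (adjusted p = 0.044). No size is given for Gstm3, whose controls were all at background, and its call was lost with a pseudocount of 1 (adjusted p = 0.629). That call also ended when any one of 12 of the 16 arrays involved was left out. Between weeks 8 and 20 it passed downward for 6 genes, where 16.9% of all genes did so, and upward for Gstt1, where 14.2% did. The downward changes were -3.18 for Gsta1, -2.48 for Gsta2, -0.86 for Gstm1, -1.60 for Gstm2 and -3.69 for Gstp2, and Gstt1 changed by 0.82. Gstm3 was the sixth; no size is given, since it was at background in all controls and at week 20, and the call was lost with a pseudocount of 1 (adjusted p = 0.0782). The Gsta1 change (adjusted p = 0.027) ended without any one of 5 of the 16 arrays and the Gstt1 change (adjusted p = 0.021) without any one of 3. Without control week 20 replicates 3 and 4 the Gsta1 change was -5.20 and the Gsta2 change -3.95, and Gsta4 and Gstm4 also passed, at -1.20 (adjusted p = 0.00116) and -1.09 (adjusted p = 0.0147). The Gstt1 change was then 0.63 and did not pass (adjusted p = 0.112).

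Within the knockouts, 7 genes were lower at week 20 than at week 8, where 22.2% of all genes were, and Gstt1 was higher, where 20.8% were. The week 20 minus week 8 differences were -3.25 for Gsta1, -2.46 for Gsta2, -2.15 for Gstp2, -1.73 for Gstm2, -1.06 for Gstm4 and -0.97 for Gstm1, and 0.86 for Gstt1. Gstm3 also passed, but its week 20 arrays were at background and no size is given. From week 4 to week 8 in knockouts only Gstm3 (-1.30) and Gstt1 (-0.75) passed (the Gstm3 call was lost with a pseudocount of 1, adjusted p = 0.348), both lower, where 4.98% of all genes were higher and 4.02% lower. Within the controls, Gstp1 and Gstp2 were higher at week 8 than at week 4 by 1.20 and 1.68, where 3.19% of all genes were higher, and Gstm1 and Gstm2 were lower, with differences of -0.57 and -0.63, where 4.79% were lower. The Gstp2 change in controls ended when any one of 6 of the 8 arrays was left out. Between weeks 8 and 20 in the controls 0 transferase genes passed by limma, and 1 was higher at an unadjusted p under 0.05, where 0.0186% of all genes were higher and 0.00932% lower. That gene was Gstp2, with a difference of 1.54 (adjusted p = 0.275).

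Of 19 other glutathione transferase genes, 13 could be tested. At week 4, 1 was higher and 2 were lower (7.69% and 15.4%, against 14.8% and 12.4% of all genes). At week 8, 5 were higher and 2 lower (38.5% and 15.4%, against 24.9% and 24% of all genes). At week 20, 0 passed in either direction by limma (1 higher and 1 lower at an unadjusted p under 0.05), against 3.44% and 2.23% of all genes. The median difference of these 13 genes was -0.07, 0.55 and -0.01 at the 3 weeks. The microsomal enzymes Mgst3 and Mgst2 were higher at week 8 by 1.89 and 1.21. Gstz1, which isomerises maleylacetoacetate in tyrosine breakdown, was lower, with differences of -0.58 at week 4 and -0.53 at week 8. The omega enzyme Gsto1 was lower at week 4 (-1.19).

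Glutathione itself is made in 2 enzymatic steps from cysteine, and 14 of 15 genes of its synthesis and turnover were tested. At week 4, 2 were higher and 1 lower (14.3% and 7.14%, against 14.8% and 12.4% of all genes). At week 8, 4 were higher and 4 lower, which is 28.6% each way, near the 24.9% and 24% of all genes. At week 20, 0 passed by limma (1 higher at an unadjusted p under 0.05), against 3.44% and 2.23% of all genes. The median difference was -0.23, 0.17 and 0.06 at the 3 weeks. The cystine transporter Slc7a11 was higher by 1.83 ± 0.29 at week 4 and 6.94 ± 0.29 at week 8, and Dpep1, a dipeptidase that cleaves cysteinylglycine, by 2.38 and 3.60. Slc7a11 and Dpep1 lay near the floor of the scale in controls (means of 4.00 and 4.12 at week 8), so the fitted values are not folds. Glutathione synthetase Gss was higher by 1.03 at week 8. Chac1, which degrades glutathione, was lower at weeks 4 and 8 (-1.18 and -1.31).

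Among 11 of 12 genes tested of glutathione reduction and use, 2 were higher and 3 lower at week 4, 4 higher and 2 lower at week 8, and 1 lower at week 20, with medians of 0.00, 0.05 and 0.17. The shares were 18.2% and 27.3% at week 4, against 14.8% and 12.4% of all genes. At week 8 they were 36.4% and 18.2%, against 24.9% and 24% of all genes. At week 20, 9.09% were lower, against 2.23% of all genes. The glutathione peroxidases Gpx2 (3.05 and 4.38 at weeks 4 and 8) and Gpx4 (0.52 and 0.67) were higher, and Gpx7 was higher by 2.95 at week 8. Glyoxalase Glo1 was lower at both weeks (-0.87 and -1.33), and Esd was the gene lower at week 20 (-0.56). Of 7 conjugate exporters 4 were tested: 1 was higher and 1 lower at week 4, 2 were higher and 1 lower at week 8, and 0 passed at week 20 by limma (2 higher at an unadjusted p under 0.05). With 4 genes tested, 1 gene is 25%. Of all genes, 14.8% were higher and 12.4% lower at week 4, 24.9% and 24% at week 8, and 3.44% and 2.23% at week 20. The medians of the exporters were 0.45, 0.48 and 0.53. Abcc2, the canalicular exporter of glutathione conjugates, was higher by 0.57 and 0.95 at weeks 4 and 8, and Abcc6 was lower (-0.83 and -1.44).

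Of 14 regulators 10 were tested: 3 were lower at week 4, 2 were higher and 5 lower at week 8, and 0 passed at week 20 by limma (2 higher at an unadjusted p under 0.05). The share lower at week 4 was 30%, against 12.4% of all genes. At week 8, 20% were higher and 50% lower, against 24.9% and 24% of all genes. The 0 at week 20 stands beside 3.44% higher and 2.23% lower of all genes. The medians of the regulators were -0.14, -0.20 and 0.18. The nuclear receptors Nr1i3 (CAR) and Nr1i2 (PXR), which respond to drugs, were lower at week 4 (-0.73 and -0.74), and Nr1i3 was lower at week 8 (-1.61). Bach1, a repressor at antioxidant response elements, was lower at weeks 4 and 8 (-1.12 and -1.54). Nfe2l2, which encodes NRF2 and is named here for its role after its values were seen, was higher by 0.57 ± 0.19 at week 8 (adjusted p = 0.017), against 0.37 ± 0.19 at week 4 (adjusted p = 0.153).

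For the member of highest mean log2 signal in each class, the 3 genes of highest Pearson correlation over the 24 arrays were taken as a description. The log2 mean served only to pick 1 gene per class and is no comparison of levels. For Gsta4 they were Gsta2 (0.90), Gsta1 (0.89) and the cytochrome P450 gene Cyp2a5 (0.85). For Gstm1 they were the carbonyl reductase Cbr1 (0.95), App (0.94) and Gstm2 (0.94). For Gstp1 they were Slc35e3 (0.88), Rexo2 (0.86) and Ccdc25 (0.83). For Gstt1 they were the paraoxonase Pon1 (0.92), Cyp2c50 (0.91) and Cyp2a12 (0.91). These arrays share their groups, so genes that differ between the same groups correlate.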

How the data were processed

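Biotinylated cRNA from total liver RNA was measured on 1-colour Illumina arrays, per the labels' protocols. The authors deposited normalized linear intensity, made with GenomeStudio 2011 per the submitters' processing notes; 27.8% of values lie below 0 and column medians are 13.3 to 13.6. A non-normalized table has 48 columns that name no sample here; they were not used, and only its probe and symbol pairs were read. Values were set to at least 0, given a pseudocount of 16 and put on the log2 scale, a transform of the deposited intensity. The noise SD (7.03, root mean square of negative values) times 2.33 set the background threshold of 16.3. Probes above it on at least 4 arrays were kept, and the probe of highest mean stood for each gene (10733 genes). Symbols were updated through RefSeq (GRCm38.p6).

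A linear model of 6 group means (limma 3.58.1 under R 4.3.3, with eBayes and a trend) gave two-sided p-values, adjusted over all genes. The test was tried on simulated data. Arrays were not paired by replicate number. Deviations of same-numbered knockout and control arrays correlated at -0.15 to 0.04, which shows no sign of pairing but cannot exclude a shared source. The members and lists were chosen with earlier results of these data known. Every member is named, the 4 lowest p past the threshold could be named from each list, and correlated genes were taken 3 per class. Alternatives changed the pseudocount, floor, filter, normalization, probe rule, block, weights, trend and arrays.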

Additional observations from a re-analysis of the deposited data

Results flagged for a closer look

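In groups of 4 arrays, 1 array lay far from the other 3 by Dixon's test in 4 of 60 gene-by-group sets, where chance gives about 1 in 20. On the log2 scale, knockout week 4 replicate 4 was low for Gsta1 (11.99, others 13.02 to 13.15) and for Gsta4 (9.91, others 10.42 to 10.44). Gstp2 was high in knockout week 4 replicate 5 (13.94, others 13.23 to 13.28) and in knockout week 20 replicate 4 (12.37, others 10.87 to 11.04).

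The knockout-control difference changed between weeks, by limma's interaction contrast, in 9 of 20 tests. Of all genes, 5.57% changed upward and 3.36% downward from week 4 to week 8. From week 8 to week 20 these shares were 14.2% and 16.9%. From week 4 to week 8 the change was -1.24 ± 0.39 for Gstm3 and -1.06 ± 0.26 for Gstp1. From week 8 to week 20 it was -3.18 ± 1.08 for Gsta1, -2.48 ± 0.71 for Gsta2, -0.86 ± 0.18 for Gstm1, -1.60 ± 0.20 for Gstm2, -1.99 ± 0.39 for Gstm3, -3.69 ± 0.69 for Gstp2 and 0.82 ± 0.27 for Gstt1. The Gstm3 values rest on groups at background, so the floor and pseudocount set their size: over the alternatives they ran from -1.51 to -1.05 for the first change and from -3.07 to -1.22 for the second, with adjusted p-values up to 0.667 and 0.0782.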

How the results depend on the processing

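No result changed sign while called. Over single genes, 1703 of 1890 alternative values kept their direction and side of the threshold, 96 lost a call, 20 gained one and 71 moved without a call in either setting. The cause was not tested for any of them. The week 20 counts moved most. All genes higher at week 20 (369) numbered 240 with no filter, 110 with only the 8 arrays of that week and 193 without control week 20 replicates 3 and 4; all genes lower (239) numbered 150, 57 and 112. Transferases higher at week 20 (2) numbered 1 with a pseudocount of 1, with quantile normalization repeated, with the mean of a gene's probes, with array weights and without control replicates 3 and 4. They numbered 0 with a floor of 16, no filter, no trend and only those 8 arrays. The 1 lower transferase at week 20 numbered 0 with a pseudocount of 1, a floor of 16, no filter, repeated normalization, the mean of probes, no trend, only 8 arrays, and without control replicates 3 and 4. With only the 8 arrays of week 4, 1 was lower there, where the main count is 0.

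The change from week 4 to 8 was upward for 0 genes, but for 1 with the mean of probes or array weights and 2 without control week 20 replicates 3 and 4; the 2 downward genes numbered 1 with a pseudocount of 1, no filter, the filter at 12 arrays or repeated normalization. The change from week 8 to 20 was upward for 1 gene, 2 with the mean of probes and 0 without those replicates. In controls from week 4 to 8, the 2 higher genes numbered 1 with a pseudocount of 50 or no filter, and the 2 lower ones 1 with the mean of probes. In knockouts from week 4 to 8, the 2 lower genes numbered 1 with a pseudocount of 1, the filter at 12 arrays or repeated normalization. With the mean of its probes, Gstm1 at week 8 was 0.29 (adjusted p = 0.0968).

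The replicate block, with numbers that are not known to pair the arrays, gave 1 gene changed upward (main 0) and 1 downward (main 2) from week 4 to 8. It also gave 1 higher in controls from week 4 to 8 (main 2), and 0 lower at week 20 (main 1).

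Leaving out 1 array at a time gave 6 to 7 transferases higher at week 4, 7 to 8 at week 8 and 0 to 3 at week 20, and 0 to 0, 2 to 2 and 0 to 1 lower. All genes higher numbered 1285 to 1572, 2316 to 2547 and 181 to 417 at the 3 weeks, and lower 1083 to 1281, 2249 to 2471 and 98 to 303. The change from week 4 to 8 was upward for 0 to 1 and downward for 1 to 2 genes, and that from week 8 to 20 upward for 0 to 1 and downward for 5 to 7. In controls 1 to 2 were higher and 2 to 2 lower from week 4 to 8, and 0 to 1 higher from week 8 to 20; in knockouts 1 to 2 were lower from week 4 to 8. Signal over background limits Gstm3, dim in every control array, and the second Gstm1 probe.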
